A study of Mus musculus with 4 samples.

Results

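The nuclear genes that encode subunits of the oxidative phosphorylation system were followed in larynx tissue of *Shh*-/- and WT mouse embryos. Members were taken by gene name, as the *Nduf* subunit, *Sdh*, *Uqcr*, *Cox4* to *Cox8* and *Atp5* genes, after 4 pseudogene names ending in -ps were dropped. This gave 84 genes of the 46983 listed. By name alone, 37 were counted under complex I, 4 under complex II, 8 under complex III, 18 under complex IV and 17 under complex V. A mean of at least 1 TPM over the 4 libraries was reached by 80 of the 84, and these were tested. TPM is the abundance of a gene's transcripts as a share of all transcripts, scaled to the same total in each library. The 4 genes below that level, *Cox6a2*, *Cox8b*, *Cox8c* and *Cox7b2*, are all alternative isoform genes of complex IV.

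Each library was poly(A)-selected RNA from a pool of 3 whole larynxes at E10.5 (32 to 35 somites), with 2 *Shh*-/- pools (numbered 1 and 2) and 2 WT pools (numbered 4 and 6). The mutants carried the *Shh* tm1amc null allele on a Swiss Webster background, in which *Shh* is lost from the whole embryo, and the controls were Swiss Webster WT embryos. The labels give the mutant genotype as *Shh*+/-, whereas the study's design and paper give *Shh*-/-. Embryos were pooled within a library, so that p-values measure the spread between pools, and a larynx cannot be followed singly.

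Oxidative phosphorylation couples the oxidation of NADH and succinate to the production of ATP in the inner mitochondrial membrane. Complexes I and II pass electrons to ubiquinone, complex III passes them on to cytochrome c, and complex IV passes them to oxygen. Complexes I, III and IV pump protons as they do so, and complex V, the ATP synthase, lets the protons flow back through a ring of c subunits whose rotation drives ATP formation. Most subunits are encoded in the nucleus and a few in mitochondrial DNA. The mitochondrially encoded genes are not measured by these tables, since 37 of 37 were listed at 0 in every library, and the values below therefore concern the nuclear subunits alone.

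The largest difference among the members was in a gene of ring subunit c, *Atp5g1*, and it was seen in TPM and not in read coverage. Subunit c is made from 3 genes on different chromosomes, *Atp5g1*, *Atp5g2* and *Atp5g3*, whose mature proteins are alike and whose import sequences differ. Their shared part is shown because the comparison of these genes depends on telling their transcripts apart. The sequences are the last 225 bases (75 codons) before the stop codon, 5′ to 3′ on the coding strand, from the GENCODE M21 transcripts (GRCm38). Capitals mark the 57 positions at which the 3 genes are not identical, of which 52 are the last base of a codon.
Atp5g1: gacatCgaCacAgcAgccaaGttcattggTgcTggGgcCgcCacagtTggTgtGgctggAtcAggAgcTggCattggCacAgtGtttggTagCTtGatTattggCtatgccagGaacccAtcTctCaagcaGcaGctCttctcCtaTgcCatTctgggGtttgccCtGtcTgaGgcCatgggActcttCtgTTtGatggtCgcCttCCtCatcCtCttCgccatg
Atp5g2: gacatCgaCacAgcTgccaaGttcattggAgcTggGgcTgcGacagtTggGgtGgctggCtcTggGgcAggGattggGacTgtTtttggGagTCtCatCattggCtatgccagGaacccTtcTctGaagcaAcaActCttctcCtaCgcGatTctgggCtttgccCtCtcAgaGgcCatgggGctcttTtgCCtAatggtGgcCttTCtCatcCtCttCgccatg
Atp5g3: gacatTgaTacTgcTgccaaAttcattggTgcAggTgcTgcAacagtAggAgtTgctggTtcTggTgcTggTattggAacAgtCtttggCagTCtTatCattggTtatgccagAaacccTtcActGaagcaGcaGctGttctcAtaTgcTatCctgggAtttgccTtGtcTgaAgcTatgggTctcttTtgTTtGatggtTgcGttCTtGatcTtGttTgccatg
These exonic coding stretches lie, introns included, at chr11:96073107-96073635 (*Atp5g1*), chr15:102663017-102665166 (*Atp5g2*) and chr2:73908596-73909296 (*Atp5g3*), in each case on the minus strand. *Atp5g1* differed from *Atp5g2* at 34 bases and from *Atp5g3* at 45 bases, and *Atp5g2* differed from *Atp5g3* at 48. The longest identical runs of these pairs were 20, 11 and 8 bases. Pseudogenes of these genes were closer to them. The stretch of *Atp5g1* differed from the pseudogene *Gm10039* (chr11:100361716-100362126) at 1 base, and that of *Atp5g2* was identical in *Gm10231* and *Gm10175*.

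The *Shh*-/- and WT pools were separated by their Hedgehog response. TPM of *Ptch1*, the Hedgehog receptor and target gene, was 12.9 and 13.8 in mutant pools and 57.8 and 55.1 in controls. *Shh* itself was at 10.4 and 10.8 against 23.7 and 42.1, a gene-level value that does not show which exons were read. The tables give no read counts. The ratio of their coverage and FPKM columns gave 1.37 and 3.13 gigabases aligned in mutant pools and 2.85 and 2.97 in controls, so that the first *Shh*-/- pool was the shallowest. Markers of other cell types in the tissue were also compared. The erythroid, neural crest and foregut epithelial sums overlapped between genotypes, and the other sums did not. Of the 12 neuronal markers, 11 were higher in mutant pools and *Isl1* was lower (log2 fold change -0.72). Of the 7 neural crest markers, 6 were higher in TPM in mutant pools and *Ets1* was lower (-0.51), each without overlap. The summed TPM of 12 neuronal markers was 783 and 871 in mutant pools against 269 and 246 in WT (5 of 12 passed the test as higher), that of 13 heart and muscle markers was 204 and 316 against 80.4 and 89.3 (2 of 10 tested, with *Myl2* at 0 in all but 1 pool), and that of 9 erythroid markers was 11814 and 17913 against 16194 and 18340 (0 of 9). Mesenchymal markers summed to 1110.3 and 990.1 against 705 and 732 (1 of 6), endothelial markers to 196 and 221 against 136 and 134 (0 of 4), neural crest markers to 172 and 135 against 136 and 107 (0 of 7), and foregut epithelial markers to 686 and 598 against 634 and 640 (0 of 9). Within that last list, which keratins, *Cldn6* and *Epcam* dominate by level, *Foxa2* (log2 fold change -2.13), *Nkx2-1* (-1.64), *Foxa1* (-1.004) and *Cdh1* (-0.42) were lower without overlap, while *Krt8* (0.44), *Epcam* (0.33) and *Krt18* (0.18) were higher without overlap. The part of these cell types in the values below was not tested, and in whole tissue fewer cells of a type and less RNA per cell cannot be told apart.

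The nuclear subunit genes were abundant and, as a group, nearly level between the genotypes. Their summed TPM was 16502 and 17817 in mutant pools and 18180 and 17251 in controls, which is 1.65 to 1.82% of each library. The pools overlapped (two-sided exact permutation p = 0.67, where 2 pools against 2 cannot give less than 0.33). A limma test was run on log2(TPM + 1) over 16972 genes, and 1 of the 80 members passed an adjusted p of 0.05, beside 0.725% of all tested genes. That member was *Atp5g1*. At an unadjusted p under 0.05 there were 12 members, 7 higher and 5 lower, beside 24.8% of all tested genes. The median log2 fold change (*Shh*-/- minus WT) was -0.01 over the members and 0.08 over all tested genes, with 36 members higher and 44 lower.

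The members differed less between genotypes than most genes did. The median absolute log2 fold change was 0.118 for the 80 members and 0.273 for all tested genes. Members were also more abundant, and the median TPM was 167 for members and 16.7 for all tested genes. Among genes with a mean of at least 50 TPM, the median absolute change was 0.130 for 72 members and 0.203 for 3866 genes. A log2 difference of over 0.5 in either direction was seen for 4 members (5%) and for 23.3% of all tested genes. Both *Shh*-/- pools lay above both WT pools for 18 members, beside 38% of all tested genes, and below them for 20 members, beside 22.7%. The remaining 42 overlapped. When each library was centred on its median gene, log2 fold changes shifted by -0.13, and relative to that reference 17 members were higher and 63 lower, with a member median of -0.14.

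**Figure D1:**
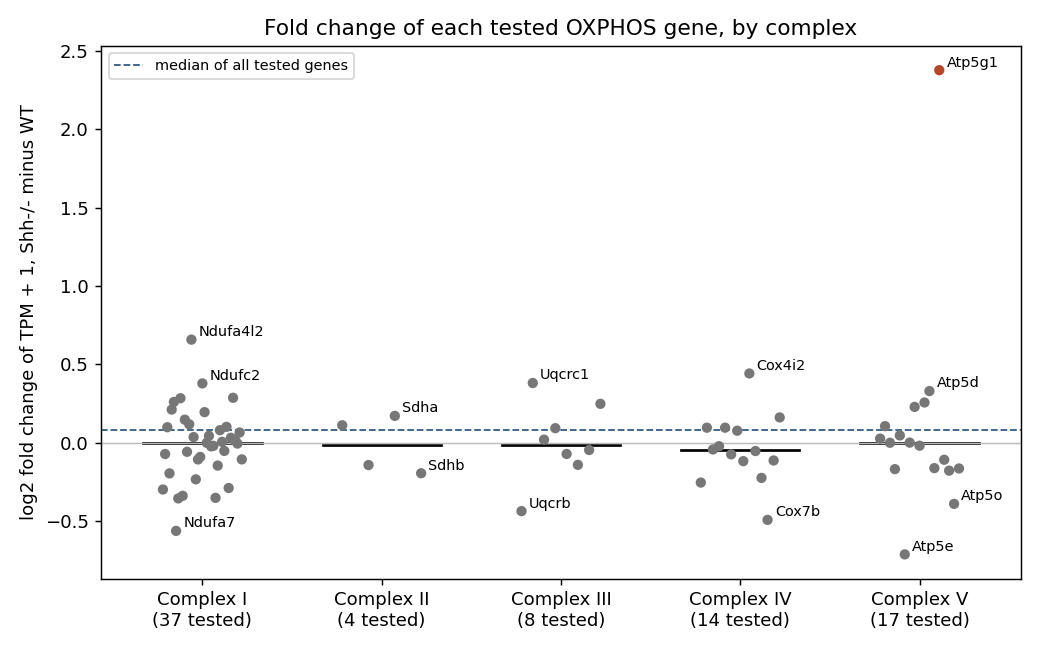
Each point is 1 tested gene, placed by complex on the horizontal axis and by its log2 fold change of TPM + 1 (*Shh*-/- minus WT) on the vertical axis. Black bars are complex medians, the dashed line is the median of all tested genes, and the red point is the gene past an adjusted p of 0.05. *Atp5g1* stands at 2.38, while the other 79 members lie between -0.71 and 0.66.

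The 2 *Shh*-/- pools differed from each other in these genes. The first *Shh*-/- pool was below the second in 62 of 80 members, whereas this was so for 41.9% of all tested genes. The gap between the pools of a genotype, as a median over members on the log2 scale, was 0.18 for *Shh*-/- and 0.083 for WT, and over all tested genes it was 0.19 and 0.18. The first *Shh*-/- pool was also the shallowest library and had the smallest haemoglobin share, 1.18% of TPM against 1.63 to 1.85% in the others. The part of depth and of blood in this gap was not tested.

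By complex, the medians lay near 0. Median log2 fold changes were -0.002 for complex I (18 of 37 higher), -0.02 for complex II (2 of 4), -0.01 for complex III (4 of 8), -0.05 for complex IV (5 of 14 tested) and -0.001 for complex V (7 of 17). Summed TPM of complex I was 4686 and 5381 in mutant pools and 5316 and 5019 in WT. For complex III the sums were 1484 and 1652 against 1583 and 1545, for complex IV 3325 and 3755 against 3781 and 3647, and for complex V 6359 and 6376 against 6817 and 6366. In each of these complexes the genotypes overlapped. The complex II sums were 648 and 652 against 682 and 673, and there the pools did not overlap (exact permutation p = 0.33, the smallest possible).

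**Figure D2:**
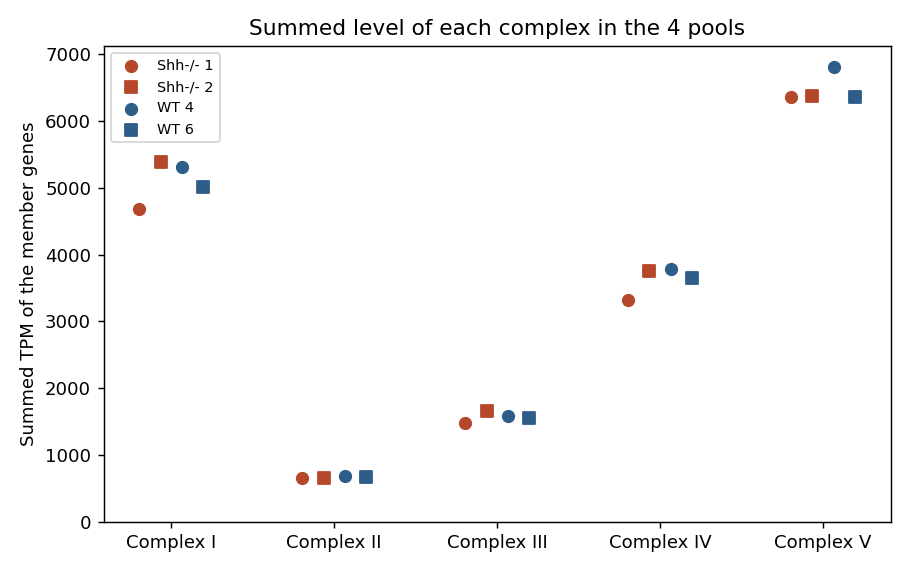
Points give the summed TPM of the member genes of each complex in each pool, with *Shh*-/- pools in red and WT pools in blue. Complex V holds the largest sums, 6359 to 6817, and complex II the smallest, 648 to 682, and the genotypes overlap in every complex except II.

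In complex I, the NADH dehydrogenase, the 3 members of largest difference without overlap were *Ndufa4l2*, *Ndufa7* and *Ndufc2*, none of which passed the adjusted test. *Ndufa7*, an accessory subunit (chr17:33824591-33838316), was at 136 and 159 TPM in mutant pools and 219 and 217 in controls. Both mutant pools were thus below both controls, with a log2 fold change of -0.56 ± 0.11 (SE) and an adjusted p of 0.093. *Ndufc2*, an accessory subunit of the membrane arm, was at 199 and 200.4 against 152 and 155 TPM, or 0.38 ± 0.09 (adjusted p = 0.11). The pools of each genotype were close to each other. *Ndufs1*, *Ndufs3*, *Ndufs7*, *Ndufs8*, *Ndufv1* and *Ndufv2* are core subunits that bind or surround the flavin and the iron-sulfur clusters. Of these, which were picked for that role and not by the naming rule, *Ndufv1* was higher without overlap at log2 0.21. *Ndufs1*, *Ndufs8* and *Ndufv2* were lower without overlap at -0.20, -0.30 and -0.36. *Ndufs3* and *Ndufs7* overlapped.

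*Ndufa4* and *Ndufa4l2* are a related pair. The product of *Ndufa4* was first named with complex I and is now placed in complex IV, and *Ndufa4l2* is known as a gene induced by low oxygen. *Ndufa4* had the widest spread of any member, with 192 and 419 TPM in mutant pools and 565 and 229 in controls. Its log2 fold change of -0.34 ± 0.55 changed sign when the first *Shh*-/- pool (0.22) or WT pool 4 (0.31) was left out. *Ndufa4l2* was scarce, at 4.97 and 6.54 TPM against 3.61 and 2.92, or 0.66 ± 0.22 (adjusted p = 0.16), and 0.40 after correction for GC content and transcript length.

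In complex II, succinate dehydrogenase, the 2 catalytic subunits stood on opposite sides of WT. The flavoprotein gene *Sdha* was at 184 and 184 TPM in mutant pools and 164 and 163 in WT (log2 0.17 ± 0.09, adjusted p = 0.28). The iron-sulfur subunit gene *Sdhb* was at 212 and 213 against 241 and 247 (-0.20 ± 0.08, adjusted p = 0.23). *Sdhd*, a membrane anchor, was at 197 and 204 against 226 and 217 TPM (-0.14 ± 0.09). The other anchor gene, *Sdhc*, was the least abundant of the 4, at 54.4 and 50.9 against 51.1 and 46.4 TPM, and overlapped. The pools of each genotype were close for these genes, and none passed the test. After correction for GC content and transcript length, *Sdha* was at 0.039 and *Sdhb* at -0.36.

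In complex III, the cytochrome bc1 complex, *Uqcrc1* and *Uqcrfs1* were higher and *Uqcrb* was lower in both *Shh*-/- pools. *Uqcrc1*, a core protein, was at 200.0 and 191 TPM against 166 and 135 (0.38 ± 0.13, adjusted p = 0.17). *Uqcrfs1*, the Rieske iron-sulfur protein, was at 152 and 162 against 141 and 124 (0.25 ± 0.11). *Uqcrb*, a small ubiquinone-binding subunit, was at 184 and 230.1 against 280 and 279 (-0.44 ± 0.13, adjusted p = 0.15). Stretches of 75 bases of its transcript, 29.1% in all, also occur in transcripts of pseudogenes such as *Gm16089*, so reads could be divided between them. Correction for GC content and transcript length moved *Uqcrc1* to 0.087 and *Uqcrb* to -0.12, with *Uqcrfs1* at 0.23. Without WT pool 6, *Uqcrc1* was at 0.23 and *Uqcrfs1* at 0.16, and without the first *Shh*-/- pool *Uqcrb* was at -0.28.

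In complex IV, cytochrome c oxidase, many subunits have a widely expressed gene and a tissue-restricted partner. In the larynx the widely expressed gene dominated each pair. *Cox4i1* was at 953 and 1031 TPM in mutant pools and 1062 and 956 in WT, whereas *Cox4i2*, the isoform typical of lung, was at 10.8 and 11.6 against 7.58 and 8.45. *Cox4i2* was higher in both mutant pools (0.44 ± 0.15) without passing the test (adjusted p = 0.18), and was at 0.27 after correction for GC content and transcript length. It amounted to 1.14 and 1.13% of *Cox4i1* TPM against 0.714 and 0.884%. The muscle isoform genes *Cox6a2* and *Cox8b* and the testis isoform gene *Cox8c* were listed at 0 in the 4 libraries. *Cox7b2* was listed at 0 in 3 libraries and at 0.218 TPM in WT pool 6. *Cox7a1*, the heart and muscle isoform, was at 2.48 and 2.95 against 2.77 and 3.99 TPM, about 1% of *Cox7a2* (0.904 to 1.32%). *Cox6b2*, a testis isoform, was at 21.1 and 20.7 against 21.0 and 18.6, which is 3.84 to 4.83% of *Cox6b1*.

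Of the abundant genes of these sets, *Cox7b* differed most. It was at 215 and 239.7 TPM in mutant pools and 312 and 328 in WT, a log2 fold change of -0.49 ± 0.10 with an adjusted p of 0.096, and of -0.21 after correction for GC content and transcript length. *Cox7a2* was at 233 and 279.6 against 307 and 303 TPM (-0.26 ± 0.12), also without overlap, and at -0.12 without the first *Shh*-/- pool and -0.39 without the second. *Cox7a2l*, which helps to join complexes III and IV into supercomplexes, was at 255 and 240.2 against 225 and 239 TPM (0.09 ± 0.09). *Cox6a1*, *Cox6b1* and *Cox8a* overlapped between genotypes, with log2 fold changes of 0.10, -0.04 and -0.11.

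**Figure D3:**
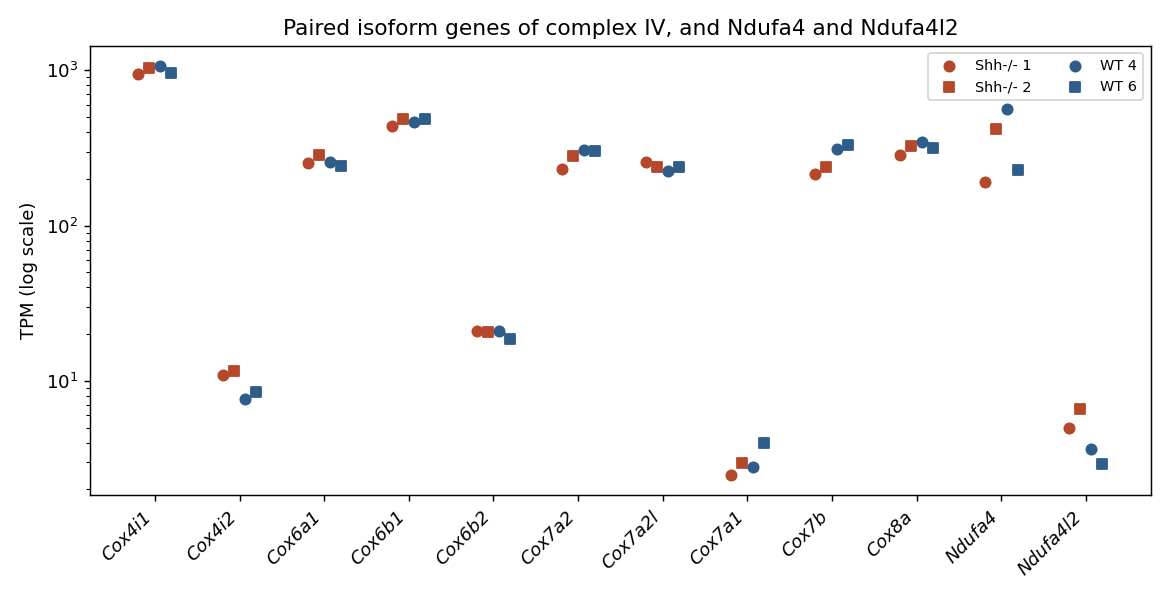
TPM on a log axis for the isoform genes of complex IV above the test filter and for *Ndufa4* and *Ndufa4l2*, with *Shh*-/- pools in red and WT pools in blue. *Cox4i2*, *Cox6b2* and *Cox7a1* sit more than a factor of 10 below their widely expressed partners, and the 4 pools of *Ndufa4* are spread from 192 to 565 TPM.

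Complex V held the most abundant members. *Atp5b*, the catalytic beta subunit, was the highest of the 84 genes at 1321 and 1328 TPM in mutant pools and 1477 and 1493 in WT (-0.17 ± 0.08, adjusted p = 0.26). *Atp5a1*, the alpha subunit that alternates with it in the catalytic head, was at 815 and 662 against 654 and 601 TPM (0.23 ± 0.13). The TPM of the genotypes did not overlap for either gene, lower for *Atp5b* and higher for *Atp5a1*. The latter depended on processing, at -0.05 after correction for GC content and transcript length (*Atp5b*, -0.30) and at 0.078 without the first *Shh*-/- pool. *Atp5o*, the cap of the peripheral stalk, was at 596 and 464 against 679.95 and 699.6 TPM (-0.39 ± 0.14, adjusted p = 0.18). Its log2 fold change was -0.21 without the second *Shh*-/- pool. Measured as for *Uqcrb*, 32.5% of the stretches of its 710-base transcript also occur in 2 other genes, among them *Gm5436*. The part of this sharing in the *Atp5o* values was not tested. *Atp5e*, the epsilon subunit of the central stalk, was at 130.03 and 148 against 308 and 169 TPM (-0.71 ± 0.29, adjusted p = 0.22), and WT pool 4 stood far above WT pool 6. The log2 fold change of *Atp5e* was -0.28 without WT pool 4 and -1.15 without WT pool 6. *Atp5s* and *Atp5sl* carry the *Atp5* name although the products are not subunits of the enzyme itself. Their TPM was 8.77 to 10.2 and 21.1 to 24.8 over the 4 pools. By name, both are counted among the 17 genes of complex V, with log2 fold changes of 0.03 and 0.10.

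*Atp5g1* (chr11:96068852-96075670) was at 122 and 118 TPM in mutant pools and 23.7 and 20.9 in controls. Its means were 120.03 ± 3.41 and 22.3 ± 1.97 (SD, n = 2 each), and its log2 fold change was 2.38 ± 0.12 (SE, 95% interval 2.08 to 2.68, adjusted p = 0.032), or 5.38-fold on the TPM means. With any 1 pool left out, its log2 fold change was 2.29 to 2.46 and its adjusted p 0.068 to 0.10, so that the call rests on the 4 pools together. *Atp5g2* was at 225 and 242 against 234 and 234 TPM and its log2 fold change was -0.0002 ± 0.09. *Atp5g3*, the main subunit c gene, was at 686 and 715 against 604 and 569 TPM (0.26 ± 0.09, adjusted p = 0.17). In TPM, *Atp5g1* made 11.8 and 10.9% of the 3 genes' sum in *Shh*-/- and 2.75 and 2.54% in WT. These shares depend on the level of *Atp5g2*, whose reads could be divided with pseudogenes. Measured as for *Uqcrb*, 100% of the stretches of its 441-base transcript also occur in *Gm10175* and in *Gm10231*. TPM of *Gm10175* was 188 and 199 in mutant pools and 204 and 197 in controls. That of *Gm10231* was 145 and 155 against 144 and 146. The part of this sharing in the *Atp5g2* values was not tested. The log2 ratio of *Atp5g1* to *Atp5g2* plus *Atp5g3* was higher by 2.24 in *Shh*-/- (exact permutation p = 0.33, the smallest possible).

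This rise was seen in TPM and not in read coverage. The tables also give the mean coverage of each gene, which was divided here by the aligned bases of the library. On that scale *Atp5g1* was at 9.18 and 10.1 reads deep per aligned gigabase in mutant pools and 11.2 and 9.85 in controls. The genotypes overlapped, and the log2 fold change of coverage + 1 was -0.11 ± 0.11 (SE, 95% interval -0.42 to 0.19), an interval that does not reach the TPM value. *Atp5g2* coverage was 47.0 and 52.3 against 50.8 and 50.7, and *Atp5g3* coverage was 108 and 117 against 99.7 and 93.8, so that both matched their TPM in direction and size. The log2 ratio of *Atp5g1* to the sum of the other subunit c genes differed by -0.26 (*Shh*-/- minus WT) in coverage.

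**Figure D4:**
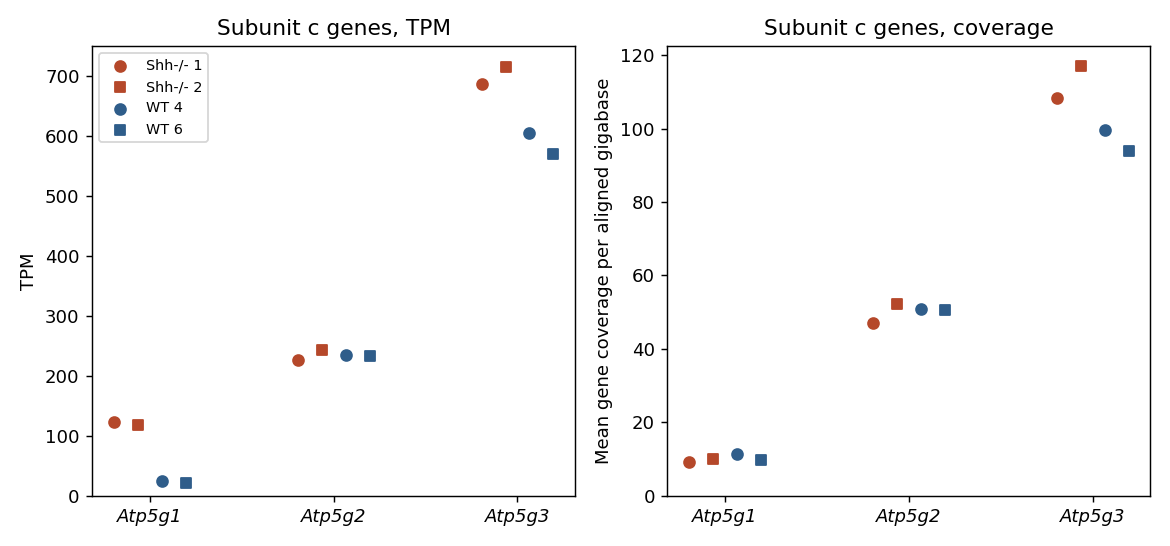
TPM (left) and mean gene coverage per aligned gigabase (right) of the 3 subunit c genes in each pool, with *Shh*-/- in red and WT in blue and both axes starting at 0. *Atp5g1* is at 118 to 122 TPM in *Shh*-/- and 20.9 to 23.7 in WT, while its coverage lies between 9.18 and 11.2 in all 4 pools.

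The relation of coverage to FPKM, the per-length value from which TPM is scaled, differed between the genotypes for this gene. For genes with 1 annotated transcript, coverage per aligned gigabase equals FPKM in every library. For *Atp5g1* it was 15.6 and 17.3% of FPKM in mutant pools and 94.5 and 94.2% in controls. For *Atp5g2* it was 43.4% in each of the 4 pools, and for *Atp5g3* it was 32.9 to 33%. GENCODE lists 4 coding transcripts of *Atp5g1*, of 596, 691, 4660 and 4715 bases, with the same coding part of 408 bases. The long transcripts run on for 4252 and 4237 bases after the stop codon and the short ones for 114 and 117. The tables hold no value for single transcripts, so the part of these transcripts in the TPM difference was not tested. The 596-base transcript shares 59.6% of its 75-base stretches with other genes. Most of these are shared with *Gm10039*, which was at 83.7 and 98.6 TPM in *Shh*-/- and 86.4 and 74.4 in WT.

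Most members gave like values on both scales, which come from the same reads. For members whose coverage equals FPKM in every library, such as *Ndufa1* and *Cox5a*, this likeness is fixed in advance. A like value in coverage is therefore not separate support for a difference in TPM. Coverage and TPM fold changes lay within 0.1 of each other on the log2 scale for 64 of 80 members and had the same sign for 70. The difference exceeded 1 for 1 member, and for 84 of the 16972 tested genes (0.495%), which include 18 of the 123 genes called on TPM. Coverage values are smaller than TPM, so the 1 added before taking logs shrinks the change of low genes more in coverage. These counts therefore include genes such as *Hhip*, which was lower on both scales (-3.36 in TPM and -2.31 in coverage). Among the members *Atp5e* came next after *Atp5g1*, with a log2 fold change of -0.71 in TPM and -0.14 in coverage. Its coverage was 31.0 and 45.6 in *Shh*-/- and 40.7 and 42.6 in WT, and so overlapped. *Ndufa12*, an accessory subunit of complex I chosen here after its values were seen, was 0.26 in TPM and -0.23 in coverage. Its 566-base transcript, the shorter of its 2 coding transcripts, shares 46.3% of its stretches with 1 other gene, *Gm15920*. *Cox7b* was -0.49 in TPM and -0.22 in coverage. *Ndufa7* was lower on both scales (-0.56 and -0.64), as was *Uqcrb* (-0.44 and -0.47), and *Ndufc2* (0.38 and 0.35) and *Uqcrc1* (0.38 and 0.34) were higher on both.

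On the coverage scale no gene was called at an adjusted p of 0.05 by limma, members included. At an unadjusted p under 0.05 there were 13 members, beside 25.8% of all tested genes (4376 of 16972). Medians were -0.06 over the members and 0.04 over all tested genes, with 28 members higher and 52 lower.

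**Figure D5:**
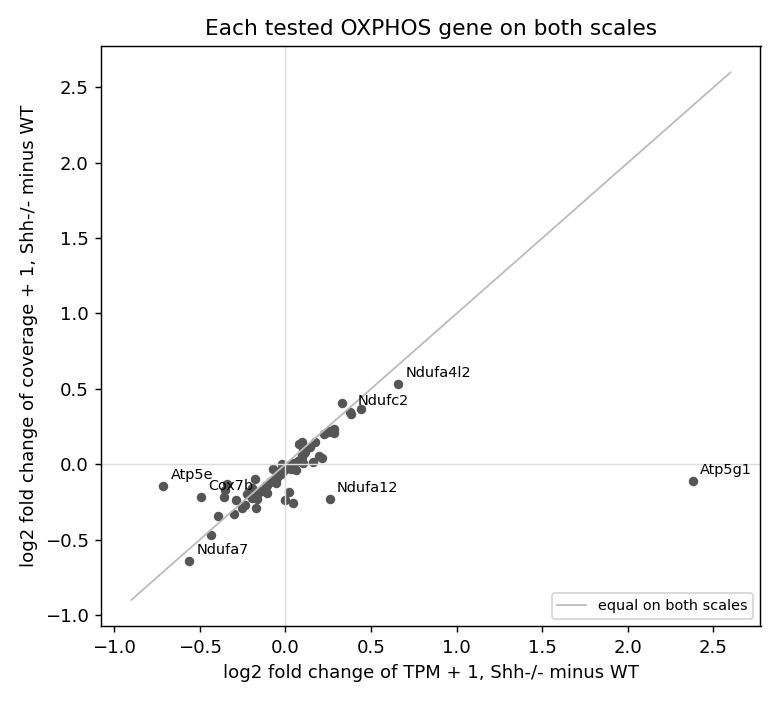
Each point is 1 of the 80 tested members, with its log2 fold change in TPM + 1 on the horizontal axis and in coverage + 1 on the vertical axis (*Shh*-/- minus WT), and the line marks equal values. Most points follow the line, and *Atp5g1* is at 2.38 in TPM and -0.11 in coverage.

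The genes around *Atp5g1* lay closer to level in TPM. Within 200 kb, 7 other genes were tested and 0 passed the adjusted test, with log2 fold changes of -0.39 to 0.40. The nearest, *Ube2z*, was at 66.4 and 56.9 TPM in *Shh*-/- and 52.5 and 43.0 in WT (0.36 ± 0.15, adjusted p = 0.22). *Snf8* was at 84.3 and 84.4 against 65.1 and 62.4 TPM (0.40 ± 0.10, adjusted p = 0.12).

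The members were mostly short genes, some with near copies elsewhere. Their annotated transcripts had a median length of 892 bases against 2605 for all tested genes, and a median GC content of 51.4 against 49.9%. Over all tested genes the log2 fold change was higher at higher GC content (Spearman rho 0.44 across genes, which are not independent), and over the members rho was 0.17. More than 10% of the 75-base stretches of a coding transcript were shared with another gene for 18 of 84 members, and 57 shared none. The 62 tested members that shared 10% or less had a median log2 fold change of -0.002.

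Promoters of oxidative phosphorylation genes often bind NRF1 and ETS-family factors. RefSeq promoter windows (GRCm38.p6, 250 bases before to 50 after the start) were found for 66 of the 84 genes, in 71 windows. The letters CGCATGCG, the core of the NRF1 motif, which reads the same on both strands, occurred in 12.7% of the members' windows and in 1.87% of 32851 windows of all genes. CCGGAAG, the ETS core, occurred on either strand in 22.5% against 8.86%. Among protein-coding genes that were tested, the shares were 3.70 and 16.5%. Of the subunit c genes, *Atp5g2* held the NRF1 letters, and *Atp5g1* and *Atp5g3* held neither motif.

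Other genes of mitochondrial energy metabolism gave few calls. In lists of related genes, 0 of 3 tested genes passed for *Cycs*, *Cyc1* and *Ndufab1* (cytochromes c and c1 and an acyl carrier subunit), 0 of 34 for assembly of complexes II to V, 0 of 12 for regulators and mitochondrial DNA maintenance, 0 of 17 for the citric acid cycle and pyruvate dehydrogenase, and 0 of 6 for carriers and pores, beside 0.725% of all tested genes. Median log2 fold changes of these lists were -0.27, 0.02, 0.05, -0.02 and -0.01. In the first list, *Cycs* was at -0.53 and *Cyc1* at 0.41, both without overlap. Mitochondrial ribosomal protein genes had a median of -0.08 (0 of 77 passed) and cytosolic ones -0.08 (3 of 97, each higher).

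The exception was assembly of complex I, where 1 of 14 passed. *Ndufaf4*, an assembly factor, was at 30.1 and 31.5 TPM in *Shh*-/- and 9.16 and 9.23 in WT. It rose by 1.64 ± 0.13 (log2, adjusted p = 0.032), and its log2 fold change in coverage was 1.61, close to that in TPM. The members of complex I that it helps to assemble were at a median of -0.002. *Pet117*, an assembly factor of complex IV, was at 11.7 and 22.8 against 4.76 and 4.77 TPM, 1.59 ± 0.32 in TPM and 1.42 in coverage, with an adjusted p of 0.097. *Ppargc1a*, a coactivator of mitochondrial gene expression, was at 0.858 and 0.927 against 2.54 and 3.59 TPM (-1.09 ± 0.23, adjusted p = 0.10), near the level of the filter.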

How the data were processed

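RNA from the 2 *Shh*-/- and 2 WT pools was sequenced single-end from stranded poly(A) libraries. The authors aligned reads to mm10 with HISAT2 2.1.0 and ran StringTie 1.3.6. The deposited tables give coverage (mean read depth per gene, not scaled between libraries), FPKM and TPM, which the authors' software scaled to one common total per library. They hold no counts, so no counting interval was made.

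Rows were summed per gene ID. limma 3.58.1 in R 4.3.3 (eBayes with trend, Benjamini-Hochberg threshold 0.05) was run on log2(TPM + 1) for the 16972 genes whose TPM averaged 1 or more, which understates the change of low genes. The same fit on coverage per aligned gigabase was chosen after the data were seen. Sums and ratios used exact two-sided permutation (scipy), whose smallest p is 0.33. The fit was checked on simulated data.

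Members and lists were chosen with earlier results of these data known. Named were members past the threshold, the 3 largest non-overlapping differences per complex, the isoform sets, the 5 most abundant members, the *Sdh* genes, members below the filter and genes within 200 kb of a called member; others are marked or come from the lists. Alternatives were a pseudocount of 0.1, no filter or a mean TPM of 5, quantile normalization, median centring, removal of haemoglobin, FPKM, eBayes without trend or robust, correction for GC content and length, an adjusted p of 0.10 and each pool left out. Protein sequences were not used here.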

Additional observations from a re-analysis of the deposited data

How the results depend on the processing

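No paired analysis was possible because the genotypes share no replicate numbers. One member, *Atp5g1*, was called in each other fit to TPM or FPKM with 4 pools, but 0 were called without the TPM filter (28524 genes tested), 0 on coverage and 0 with each pool left out in turn (fewer samples), while 3 were called at an adjusted p of 0.10. In coverage *Atp5g1* reversed to -0.11, and its log2 ratio to the other subunit c genes to -0.26. That ratio was 2.11 after quantile normalization and 2.18 to 2.31 with a pool left out. It uses no pseudocount or filter, so those alternatives gave no value. The member median was -0.14 after centring and -0.097 to 0.059 with a pool left out, the first of these without *Shh*-/- pool 2 and the second without pool 1. With a pool left out, complex medians ran from -0.069 to 0.098 (I), -0.064 to 0.031 (II), -0.18 to 0.13 (III), -0.19 to 0.042 (IV) and -0.091 to 0.052 (V). After centring they were -0.13 (I), -0.14 (II), -0.14 (III), -0.18 (IV) and -0.13 (V). Centring moves the log2 fold change of every gene by the same -0.13, so these shifts were fixed by the method. Correction for GC content and length gave -0.10 (II) and -0.11 (V), and coverage gave -0.11 (V). The cause of the shifts other than those after centring was not tested. Counting *Ndufa4* (-0.34) and *Ndufa4l2* (0.66) with complex IV left the medians of complexes I and IV as they were. The 2 genes lie on opposite sides of each median, so this regrouping could not move them. The part of depth in the number of calls was not tested.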
